A study of Cucurbita pepo with 18 samples.

Results

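Aquaporins, the channels of the major intrinsic protein family, were followed through seed coat development in hulled (H) and hull-less (HL) pumpkin (*Cucurbita pepo*). They were taken as every gene whose annotation carried the major intrinsic protein domain PF00230, which gave 56 genes of 29484 features. RNA of seed coats was sequenced at 5, 10, and 20 days after pollination (DAP), with 3 biological replicates for each of the 6 groups and 18 libraries in all. Hulled pumpkins form a lignified seed coat. The hull-less accession carries an insertion in the NAC transcription factor gene *CpNST1* and its seed coat lacks a lignified secondary wall. No treatment was applied to either, and each genotype was represented by a single accession, so that *CpNST1* and the rest of the genetic background cannot be told apart. By the name of the best database match, 25 members were plasma membrane intrinsic proteins (PIPs; 6 PIP1, 17 PIP2, and 2 listed only as PIP-type), 11 were tonoplast intrinsic proteins (TIPs), 14 were nodulin 26-like intrinsic proteins (NIPs), and 4 were small basic intrinsic proteins (SIPs). The other 2 were matched to unrelated proteins, a BTB/POZ domain protein and seipin-2, and are described last.

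Aquaporins form pores for water and, in some members, for small uncharged solutes. PIPs sit mainly in the plasma membrane, and PIP1 proteins commonly depend on PIP2 partners to reach it. TIPs carry water across the vacuolar membrane and are abundant in expanding cells, while in *Arabidopsis* the TIP3 proteins are typical of the protein storage vacuoles of seeds. In *Arabidopsis*, NIP5-1 and NIP6-1 conduct boric acid, and SIPs are found in the endoplasmic reticulum. The seed coat is a maternal tissue whose cells enlarge before some layers thicken their walls.

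The libraries held between 13827773 and 18443048 counts, of which aquaporins made up 0.435 to 1.81%. A count of 3, used as the detection floor, corresponded to 0.138 to 0.225 CPM (counts scaled to the library total and TMM factor). The floor covers counting error only. *AGL11*, a MADS-box gene of ovule and seed coat identity, was present in every group, with mean levels of 489 to 1369 CPM. It was 1 of 7 seed coat markers. Their sum at 5 DAP was 1043 to 1154 CPM in H and 737 to 824 CPM in HL. At 10 DAP it was 1089 to 1361 and 1300 to 1486 CPM, and at 20 DAP 1677 to 1873 and 1870 to 2147 CPM. Single markers varied more, as the *WRKY44* match Cp4.1LG03g02050 had group means of 1.10 to 64.5 CPM. The part of these differences in the results was not tested. One library stood apart from its group. H at 10 DAP replicate 1 correlated with its replicates at r = 0.889 and 0.923 across genes, against 0.954 to 0.987 for the other pairs. At 20 DAP the libraries also differed in transcripts of seed storage proteins, and results that these touch are given with the values beside them.

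Of the 56 members, 30 exceeded 3 counts in all 18 libraries, 20 in some, and 6 in none. Among the 6, *NIP1-1* Cp4.1LG19g06600, *NIP2-2* Cp4.1LG04g01590, *TIP2-2* Cp4.1LG05g02500, and *TIP5-1* Cp4.1LG13g00910 had 0 counts in every library. Levels between genes are compared as FPKM, the deposited values per kilobase of transcript. Expression was concentrated in a few genes. In the H seed coat at 5 DAP the 5 highest members held 74.6% of the summed aquaporin FPKM, and in the HL seed coat at 20 DAP 82.3%. Over all libraries the 6 highest mean levels belonged to *PIP1-4* Cp4.1LG01g05240 (1938 FPKM), *PIP2-7* Cp4.1LG04g04870 (1677), *TIP1-1* Cp4.1LG10g04400 (974), *TIP1-1* Cp4.1LG19g03840 (636), *PIP2-7* Cp4.1LG15g05890 (389), and *PIP2-7* Cp4.1LG05g08140 (361).

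The summed aquaporin level was 9728 ± 854 FPKM in H at 5 DAP, 9219 ± 1250.4 at 10 DAP, and 4821 ± 653 at 20 DAP (mean ± SD, n = 3). In HL it was 6872 ± 312, 10094 ± 1678, and 3605 ± 432. The sum includes the BTB/POZ and seipin-2 models, which together held means of 168 FPKM in H and 25.8 FPKM in HL at 20 DAP. The H and HL libraries did not overlap at 5 DAP and at 20 DAP, where HL was lower, and overlapped at 10 DAP. PIP1 genes summed to 3042 ± 374, 4657 ± 607, and 1768 ± 321 FPKM in H, and to 1327 ± 186, 2446 ± 299, and 681 ± 74.7 in HL. Every HL library was below every H library of its stage. PIP2 genes summed to 3726 ± 265, 2435 ± 249, and 1614 ± 191 FPKM in H, and to 2201 ± 168, 5111 ± 1134, and 1723 ± 289 in HL. Their order turned between 5 and 10 DAP, from lower to higher in HL. TIP genes summed to 2579 ± 252, 1674 ± 529, and 1009 ± 108 FPKM in H, and to 3026 ± 238, 2154 ± 319.6, and 984 ± 159 in HL. As a share of all aquaporin FPKM, TIPs were 26.5% in H and 44.1% in HL at 5 DAP. NIPs and SIPs each made up at most 3.56% of the group mean. These sums carry no test. In bulk tissue, fewer cells of a type and less RNA per cell cannot be told apart.

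**Figure D1:**
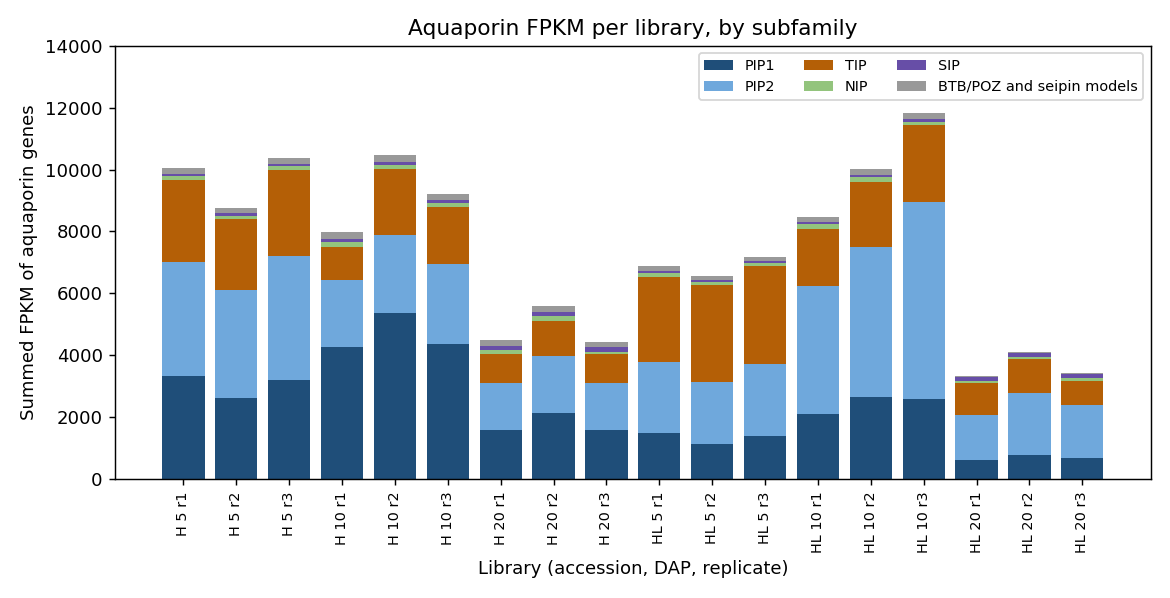
Summed FPKM of aquaporin genes in each of the 18 libraries (bars), stacked by subfamily. Libraries are named by accession, DAP, and replicate. The 2 PIP-type genes, at most 1.21 FPKM together, are not drawn. The PIP1 part is smaller in HL than in H at each stage, and both accessions have their lowest sums at 20 DAP.

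The first comparison asked how the accessions differed at 5 DAP. In HL, 10 of 40 tested aquaporins were lower and 0 were higher (edgeR quasi-likelihood test, called at an adjusted p up to 0.05 and a log2 change of 1 or more in either direction). Over all genes tested, 6.43% were lower and 5.53% higher by the same rule. Of 29 tested chlorenchyma markers (chlorophyll-binding protein genes of the photosynthetic layer of the seed coat), 6 were lower and 1 was higher in HL, with a summed level of 798 to 890.1 CPM in H and 589 to 747 CPM in HL, and their part in the result was not tested. At an unadjusted p below 0.05, 15 members were lower and 6 higher, and DESeq2 also called 0 higher. The members' median was -0.01 on the log2 scale, as was that of all genes. The lower members were 6 PIPs, 2 TIPs, and 2 NIPs, and they included the pair with the most abundant PIP transcripts in H.

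Among PIP1 genes, *PIP1-4* Cp4.1LG01g05240 (LG01, bases 813316 to 815355, plus strand) was the most abundant aquaporin of the H seed coat. Its FPKM was 2604, 1916, and 2471 in the 3 H libraries at 5 DAP and 1048, 775, and 1008 in the HL libraries. The groups did not overlap, with a log2 fold change of -1.31 ± 0.17 (SE) at adjusted p = 0.00208. Its neighbour *PIP1-4* Cp4.1LG01g05260, 578 bases away, was also lower, with a log2 fold change of -1.28 ± 0.18 (SE) at adjusted p = 0.00247. *PIP1-4* Cp4.1LG01g11200 was at 69.1, 65.4, and 62.6 FPKM in H and 24.8, 17.6, and 19.5 in HL, with a log2 fold change of -1.67 ± 0.14 (SE) at adjusted p = 0.000415. Reads of such close copies may have been shared between them by the counting, so the values of single copies are uncertain.

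Among PIP2 genes, which carry most of the water flow through PIP channels, *PIP2-7* Cp4.1LG04g04870 (LG04, bases 6291765 to 6293313, plus strand) was at 1948, 1674, and 2197 FPKM in H and 856, 698, and 813 in HL, and the groups did not overlap, with a log2 fold change of -1.30 ± 0.14 (SE) at adjusted p = 0.000932. *PIP2-7* Cp4.1LG15g05890 was at 962, 1163, and 1031 FPKM in H and 344, 309, and 346 in HL. It was lower in every HL library, with a log2 fold change of -1.66 ± 0.10 (SE) at adjusted p = 0.00013. The low-level *PIP2-5* Cp4.1LG01g24430, at most 1.73 FPKM at this stage and overlapping another PIP2 gene by 919 bases, had a log2 fold change of -1.54. The other pair matched to PIP2-7 did not pass. *PIP2-7* Cp4.1LG05g08140 was at 396, 312, and 378 FPKM in H and 685, 569.7, and 657 in HL, higher in every HL library but below the fold threshold (log2 fold change 0.81, SE 0.13, adjusted p = 0.00422). *PIP2-7* Cp4.1LG16g05300 had a log2 fold change of 0.26.

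The largest difference at 5 DAP belonged to *TIP3-2* Cp4.1LG20g01900 (LG20, bases 1083503 to 1084938, plus strand), a gene of the seed TIP3 class. It was at 133, 101, and 132 FPKM in the H libraries and 2, 2.24, and 1.76 in the HL libraries. The levels were tight within each accession and far apart between them, with a log2 fold change of -5.93 ± 0.18 (SE) at adjusted p = 1.27e-05. The second gene of the class, *TIP3-2* Cp4.1LG09g10890, had 16, 18, and 17 counts in H and 2, 1, and 3 in HL, all at or under the floor in HL. It was at least 5.28-fold lower. Storage proteins of the embryo were checked beside this result. Of 108 embryo or endosperm markers, 62 were tested, with 8 higher and 3 lower in HL, and their summed level was 3566 to 4164 CPM in H and 3738 to 4094 CPM in HL. This list was matched by annotation text and also took in genes of other roles, such as kinase and ribosomal protein genes. Its ARG2 match Cp4.1LG12g05650, named as auxin-induced, alone had means of 2498 CPM in H and 2556 CPM in HL. The sum is therefore no measure of storage tissue. The 24 storage protein and oleosin genes among the 108, a shorter list chosen after the values were seen, summed to 45.4, 48.8, and 43.5 CPM in H and 82.6, 79.0, and 75.0 CPM in HL. Of the 3 genes of the seed storage 11S globulin with the highest level in H at 20 DAP, Cp4.1LG15g00840 had 0 counts in all 6 libraries of 5 DAP, and Cp4.1LG17g01910 had 9, 10, and 7 counts in H and 26, 19, and 17 in HL. The third, Cp4.1LG05g01180, had 13, 9, and 12 counts in H and 0, 2, and 1 in HL, higher in H as *TIP3-2* was. The part of storage tissue in the *TIP3-2* difference was not tested.

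The remaining tested TIPs did not pass at 5 DAP. *TIP1-1* Cp4.1LG10g04400, a major water channel of the vacuole, was at 1228, 1029, and 1295 FPKM in H and 1576, 1512, and 1573 in HL (log2 fold change 0.39). *TIP1-1* Cp4.1LG19g03840 was at 742, 728, and 774 FPKM in H and 699.9, 992, and 994 in HL, with overlapping groups. Among NIPs, *NIP5-1* Cp4.1LG05g07410, whose *Arabidopsis* counterpart takes up boric acid, was at 12, 14.0, and 12.6 FPKM in H and 5.11, 5.95, and 5.54 in HL. It was lower in HL, with a log2 fold change of -1.22 ± 0.10 (SE) at adjusted p = 0.000435. *NIP2-1* Cp4.1LG04g01550, at most 2.01 FPKM, had a log2 fold change of -1.28 (adjusted p = 0.0287). The call of *NIP2-1* was lost without H replicate 2, H replicate 3, or any HL replicate, and that of *PIP2-5* without H replicate 2, H replicate 3, or HL replicate 2. None of the 4 SIPs passed. With all 18 libraries in one fit, 5 members were lower instead of 10, and those that no longer passed were *NIP2-1*, *NIP5-1*, *PIP1-4* Cp4.1LG01g11200, *PIP2-5*, and *TIP3-2* Cp4.1LG09g10890.

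**Figure D2:**
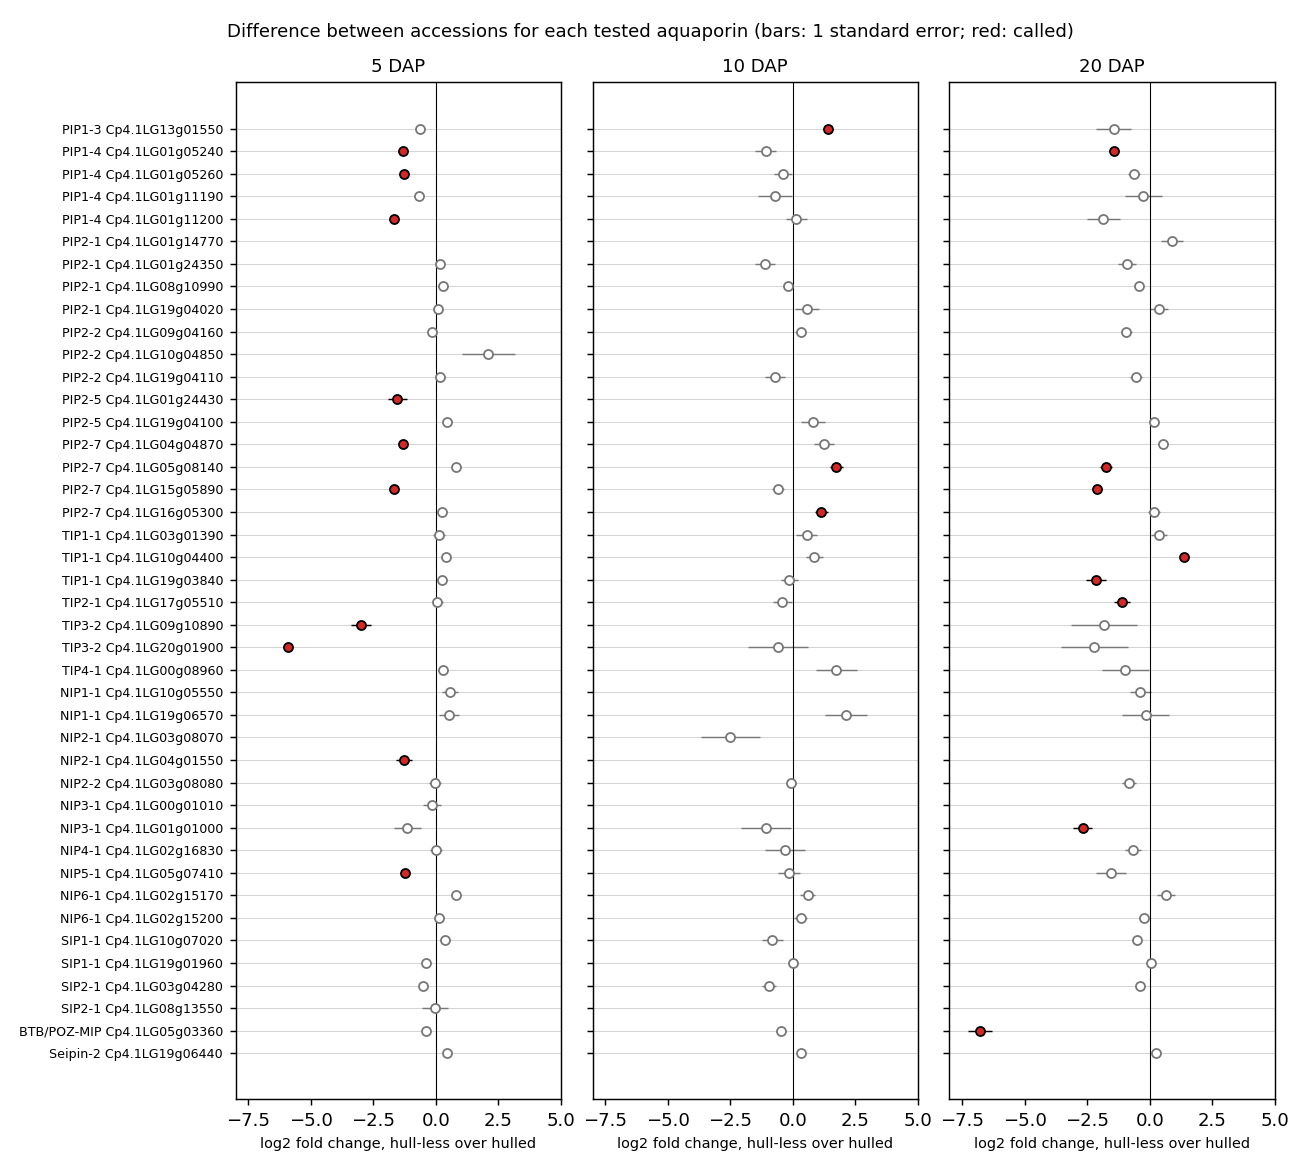
Difference between HL and H on the log2 scale at 5, 10, and 20 DAP (panels, x axis) for each tested aquaporin (y axis). Bars are 1 standard error of the edgeR fit, and red points passed both thresholds. Red points lie only to the left at 5 DAP (10), only to the right at 10 DAP (3), and mostly to the left at 20 DAP (7 of 8). The value of *TIP3-2* Cp4.1LG09g10890 at 5 DAP is a fitted one for a gene at the floor in HL.

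At 10 DAP, 3 of 34 tested aquaporins were higher in HL and 0 were lower, against 5.42% of all genes higher and 5.56% lower. At an unadjusted p below 0.05, 6 members were higher and 4 lower, and DESeq2 called 1 lower, *PIP1-4* Cp4.1LG01g05240. The median of the members was -0.10 on the log2 scale, and that of all genes -0.04. The 3 members were all PIPs.

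*PIP2-7* Cp4.1LG05g08140 was at 206, 168, and 174 FPKM in H and 474, 636, and 727 in HL. Every HL library was above every H library, with a log2 fold change of 1.74 ± 0.25 (SE) at adjusted p = 0.0104. *PIP1-3* Cp4.1LG13g01550 was at 62.2, 45.3, and 51.9 FPKM in H and 114, 148, and 158 in HL, with a log2 fold change of 1.39 ± 0.19 (SE) at adjusted p = 0.00978. *PIP2-7* Cp4.1LG16g05300 was at 256, 170.4, and 174 FPKM in H and 346, 497, and 481 in HL, with a log2 fold change of 1.14 ± 0.26 (SE) at adjusted p = 0.0362. These calls rested on few libraries. Without H replicate 1, which stood apart, 6 members were higher and 1 was lower, without H replicate 3 none was higher, and without HL replicate 2 only 1 was.

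The most abundant PIPs showed large but uncalled differences. *PIP2-7* Cp4.1LG04g04870, lower in HL at 5 DAP, was at 1190.3, 1778, and 1692 FPKM in H and 3012, 3361, and 4743 in HL. The groups did not overlap, but the log2 fold change of 1.25 ± 0.40 (SE) at adjusted p = 0.0877 missed the threshold. *PIP1-4* Cp4.1LG01g05240 was at 3842, 4801, and 3928 FPKM in H and 1764, 2151, and 2023 in HL, also without overlap (log2 fold change -1.09, SE 0.41, adjusted p = 0.13). The leading aquaporin differed between the accessions: *PIP1-4* held 45.5% of the summed aquaporin FPKM in H and 19.6% in HL, and *PIP2-7* held 16.8% in H and 36.7% in HL. None of the 6 TIPs, 8 NIPs, and 3 SIPs tested passed at 10 DAP. *TIP3-2* Cp4.1LG20g01900 was at 7.16, 1.23, and 12.7 FPKM in H and 10.9, 2.99, and 0.352 in HL, with overlapping groups.

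At 20 DAP, 7 of 36 tested aquaporins were lower in HL and 1 was higher, against 12.7% of all genes lower and 8.37% higher. The median of the members was -0.58 on the log2 scale, and that of all genes -0.01. The lower members were 3 PIPs, 2 TIPs, 1 NIP, and the BTB/POZ gene model, and the higher one was a TIP. Markers of other layers of the seed coat also moved with the accession at this stage, and their part in the result was not tested. Of 31 tested chlorenchyma markers, 20 were higher and 4 lower in HL, with a summed level of 2043 to 2403 CPM in H and 4851 to 5963 CPM in HL. The 3 cellulose synthase genes of the secondary wall (*CesA4*, *CesA7*, and *CesA8*) were all lower, with sums of 722 to 934 and 13.2 to 16.4 CPM.

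The abundant pair of the 3 genes matched to TIP1-1 differed in opposite directions. *TIP1-1* Cp4.1LG10g04400 (LG10, bases 1431950 to 1433676, minus strand) was at 259, 381, and 300.1 FPKM in H and 814, 892, and 727 in HL. It was higher in every HL library, with a log2 fold change of 1.38 ± 0.18 (SE) at adjusted p = 0.00155. *TIP1-1* Cp4.1LG19g03840 (LG19, bases 3899285 to 3900455, minus strand) was at 499, 529, and 565 FPKM in H and 144, 165, and 50.3 in HL. It was lower in every HL library, with a log2 fold change of -2.14 ± 0.40 (SE) at adjusted p = 0.00623. The summed TIP1 level was 846 ± 77.8 FPKM in H and 933 ± 141 in HL, with overlapping libraries. *TIP2-1* Cp4.1LG17g05510, whose gene model also holds an RNA ligase-like domain, was lower in HL (log2 fold change -1.11, SE 0.31, adjusted p = 0.0262), and this call was lost without H replicate 2, HL replicate 1, or HL replicate 3.

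Among PIPs, *PIP1-4* Cp4.1LG01g05240 was again lower in HL, at 1417, 1927, and 1444 FPKM in H and 509.8, 653, and 594 in HL (log2 fold change -1.44, SE 0.19, adjusted p = 0.00149). *PIP2-7* Cp4.1LG15g05890 was at 149.7, 182, and 116 FPKM in H and 31.8, 38.3, and 33.2 in HL, lower in every HL library, with a log2 fold change of -2.11 ± 0.18 (SE) at adjusted p = 0.000295. *PIP2-7* Cp4.1LG05g08140, higher in HL at 10 DAP, was at 297, 327, and 236 FPKM in H and 94.8, 101, and 58.2 in HL at 20 DAP. The order of the accessions had turned, with a log2 fold change of -1.75 ± 0.24 (SE) at adjusted p = 0.00184. *PIP2-7* Cp4.1LG04g04870 was at 729.7, 966, and 844 FPKM in H and 939.6, 1435, and 1304 in HL, with overlapping groups and a log2 fold change of 0.54 (adjusted p = 0.066).

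*NIP3-1* Cp4.1LG01g01000 (LG01, bases 3240447 to 3241783, minus strand) was the only NIP called at 20 DAP. It was at 25.1, 15.7, and 23.9 FPKM in H and 1.81, 3.21, and 5.10 in HL, and the groups did not overlap (log2 fold change -2.67, SE 0.37, adjusted p = 0.00199). The boric acid channel *NIP5-1* Cp4.1LG05g07410 was at 2.05, 2.87, and 1.53 FPKM in H and 1.28, 0.667, and 0.211 in HL, with a log2 fold change of -1.55 that did not pass (adjusted p = 0.0733). None of the 3 tested SIPs passed.

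The TIP3 genes varied between libraries of the same group at 20 DAP. *TIP3-2* Cp4.1LG20g01900 was at 131, 112, and 19.9 FPKM in H and 52.5, 3.30, and 0.721 in HL, and *TIP3-2* Cp4.1LG09g10890 at 23.4, 20, and 2.49 and 11.8, 0.782, and 0.0937. Neither passed between accessions (log2 fold changes -2.21 and -1.83, adjusted p = 0.224 and 0.297). The storage protein and oleosin genes varied in the same order of libraries. Their sum was 8805, 6858, and 1334 CPM in the H libraries and 2895, 242, and 94.2 CPM in the HL libraries, and 18 to 23 of the 24 genes exceeded the floor. The level of *TIP3-2* Cp4.1LG20g01900, in CPM, was 0.978 to 2.34% of that sum across the 6 libraries of 20 DAP, and 266 to 383% in H at 5 DAP. Of the whole embryo or endosperm list, 69 genes were tested at 20 DAP, with 4 higher and 9 lower in HL, and sums of 3734 to 11196 CPM in H and 1855 to 4547 CPM in HL. The ARG2 match in that list, Cp4.1LG12g05650, alone had means of 1080 CPM in H and 199 CPM in HL at this stage. Without HL replicate 1, the HL library with the highest storage protein level, 12 members were lower, and both *TIP3-2* genes were among them.

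**Figure D3:**
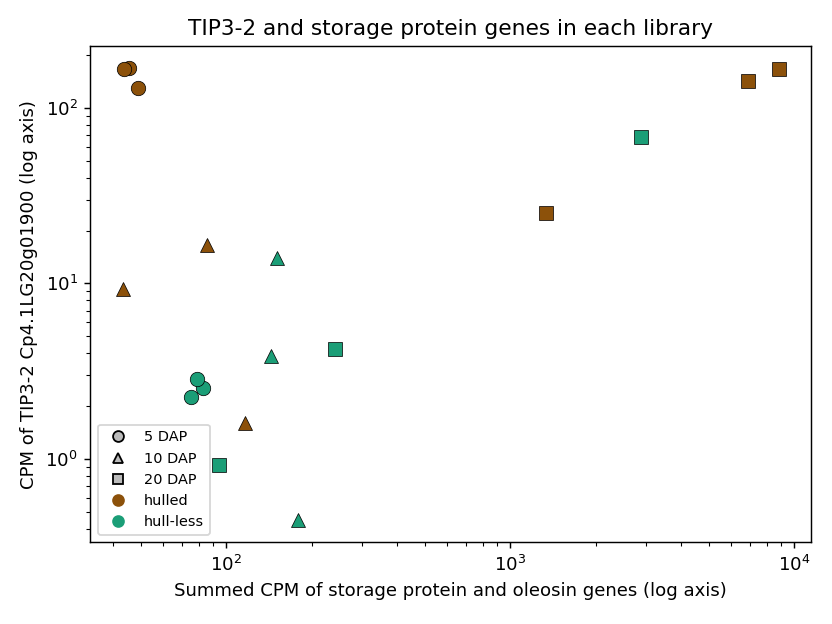
CPM of *TIP3-2* Cp4.1LG20g01900 (y axis, log) against the summed CPM of 24 storage protein and oleosin genes (x axis, log) in each of the 18 libraries. Colour marks the accession and shape the stage. The 6 libraries of 20 DAP (squares) rise together on both axes, while the 3 H libraries of 5 DAP combine a high TIP3-2 level with a low storage protein sum.

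The largest difference of any member belonged to a composite gene model. Cp4.1LG05g03360 (LG05, bases 1929953 to 1934238, plus strand) was annotated with a BTB/POZ domain, typical of protein interaction and of adaptors of ubiquitin ligases, together with a major intrinsic protein domain. Its counts were 8485, 7486, and 7629 in H and 136, 67, and 34 in HL at 20 DAP, with a log2 fold change of -6.78 ± 0.48 (SE) at adjusted p = 0.000132. At the earlier stages it differed little. It was at 175, 155, and 178 FPKM in H and 144, 114, and 129 in HL at 5 DAP, and at 195, 224, and 184 and 129, 154, and 154 at 10 DAP (log2 fold changes -0.39 and -0.47). Of the 6 groups, HL at 20 DAP alone had low values in all its libraries. The secondary wall *CesA* sum at 10 DAP was 84.5 to 327 CPM in H and 17.4 to 21.4 CPM in HL, with 3 of 3 genes lower. The part of secondary wall cells in the drop of the BTB/POZ model was not tested. Whether the reads came from the BTB/POZ or the aquaporin part of the model cannot be told apart from gene-level counts. The same limit holds for the other composite members whose models carry a second domain, among them *PIP2-1* Cp4.1LG08g10990 with ribosomal protein L11 domains and the seipin-2 model Cp4.1LG19g06440. That model contains the *NIP1-1* gene Cp4.1LG19g06600, which had 0 counts.

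**Figure D4:**
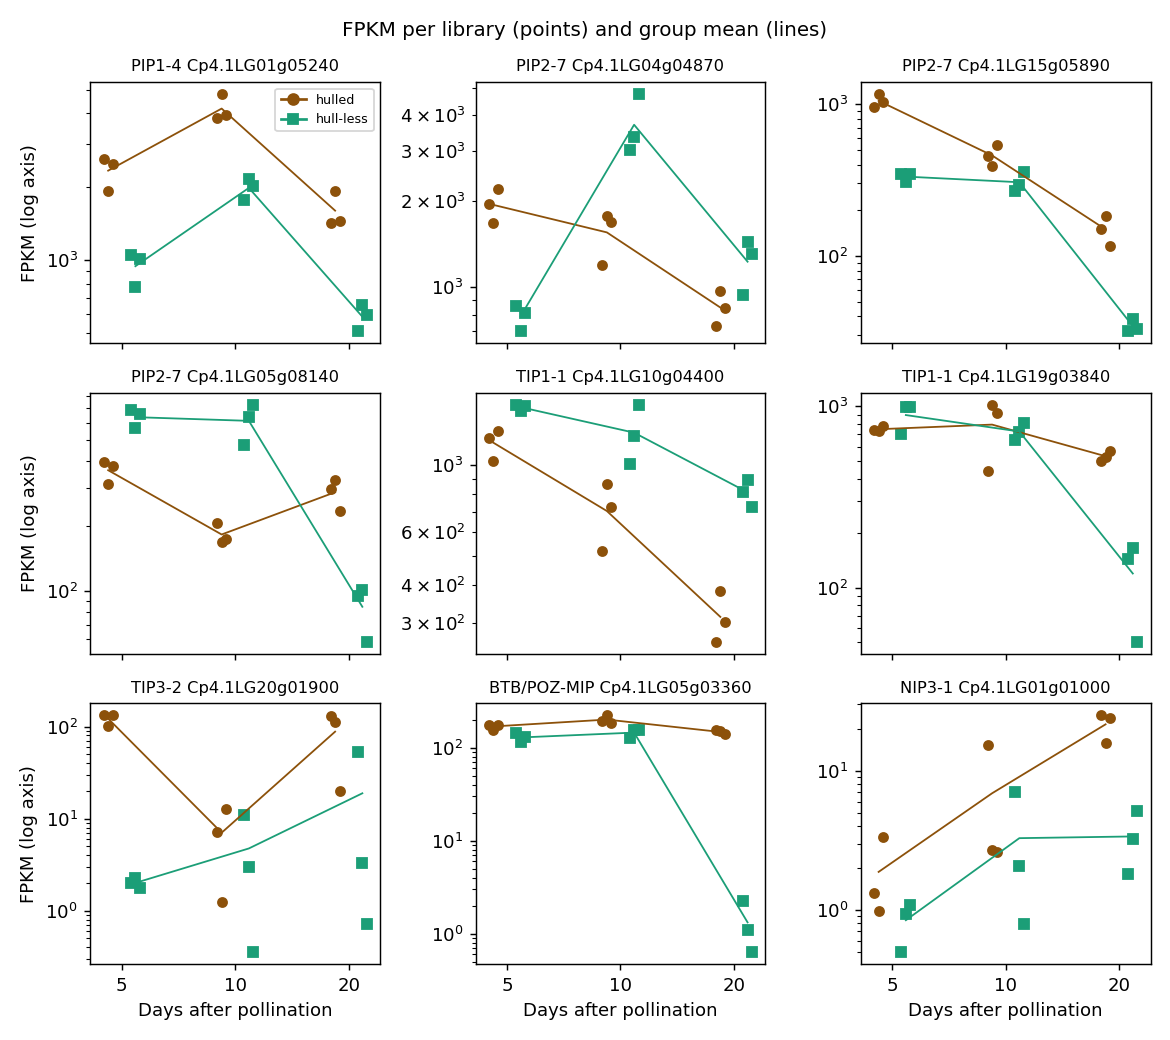
FPKM (y axis, log) of 9 aquaporin genes against DAP (x axis), with a point for each library and lines through the group means of H (circles) and HL (squares). *PIP2-7* Cp4.1LG05g08140 lies higher in HL at 10 DAP and lower at 20 DAP, *TIP1-1* Cp4.1LG10g04400 lies higher and *TIP1-1* Cp4.1LG19g03840 lower in HL at 20 DAP, and the BTB/POZ model Cp4.1LG05g03360 drops only in HL at 20 DAP.

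From 5 to 20 DAP more aquaporins fell than rose in either accession. In H, 13 of 39 tested members were lower and 7 higher at 20 DAP than at 5 DAP, against 20.6% of all genes lower and 19.8% higher. In HL, 17 of 38 were lower and 6 higher, against 23.1% and 18%. The medians of the members were -0.46 in H and -0.93 in HL on the log2 scale, and those of all genes were close to 0. Chlorenchyma markers moved over the same interval, with 15 of 29 higher and 1 lower in H and 25 of 30 higher and 0 lower in HL, and their part in the members' changes was not tested. The accessions shared 10 lower members, which are 76.9% of those of H and 58.8% of those of HL, and 5 higher members, which are 71.4% and 83.3%. No member was called in opposite directions.

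TIP genes were among the members that fell most. *TIP1-1* Cp4.1LG03g01390 went from 126, 121, and 155 FPKM to 1.58, 1.35, and 1.43 in H (log2 fold change -6.50, SE 0.16, adjusted p = 6.6e-07). In HL it went from 92.0, 185, and 163 to 2.23, 1.28, and 2.12 FPKM (log2 fold change -6.26, SE 0.37, adjusted p = 1.76e-05). *TIP4-1* Cp4.1LG00g08960 was at 103, 143, and 105 FPKM in H at 5 DAP and 1.31, 3.98, and 2.16 at 20 DAP. In HL it was at 119, 152, and 157 and 0.190, 3.11, and 0.424. It fell in both accessions, with log2 fold changes of -5.56 and -6.79, and most of the fall had occurred by 10 DAP, when the level was 4.05, 0.704, and 1.25 FPKM in H and 7.67, 10.4, and 2.26 in HL. *TIP2-1* Cp4.1LG17g05510 had log2 fold changes of -2.24 in H and -3.41 in HL.

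Among PIPs, *PIP1-3* Cp4.1LG13g01550 fell in both accessions, from 318, 404, and 362 FPKM to 16.5, 14.2, and 11.5 in H and from 259, 211, and 229 to 11.1, 3, and 1.21 in HL (log2 fold changes -4.67 and -5.47). *PIP2-7* Cp4.1LG15g05890 had log2 fold changes of -2.80 and -3.25, and passed in both. A PIP2 gene went the other way. *PIP2-1* Cp4.1LG01g14770 (LG01, bases 7408243 to 7410640, minus strand) had 0 counts in every library of 5 and 10 DAP. At 20 DAP it was at 7.06, 9.11, and 10.3 FPKM in H and 17.9, 24.9, and 6.25 in HL, at least 64.3-fold and 114-fold higher than the floor at 5 DAP. Its highest library at 20 DAP was HL replicate 2 and its lowest HL replicate 3. The storage protein sum was highest in H replicate 1 and also lowest in HL replicate 3. The part of storage tissue in this rise was not tested. *PIP2-5* Cp4.1LG19g04100 rose by 1.46 in H and 1.21 in HL.

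*PIP1-4* Cp4.1LG01g11190 fell in H (log2 fold change -3.29, SE 0.17, adjusted p = 4.36e-06) and in HL (log2 fold change -2.85, SE 0.69, adjusted p = 0.00902). So did *PIP2-1* Cp4.1LG01g24350, whose model also holds an amino acid permease domain (log2 fold changes -2.40 and -3.49). *PIP2-7* Cp4.1LG05g08140 and *TIP1-1* Cp4.1LG19g03840 fell in HL (-2.89 and -2.88), while *PIP2-7* Cp4.1LG04g04870 and *TIP1-1* Cp4.1LG10g04400 fell in H (-1.18 and -1.91 on the log2 scale). *TIP1-1* Cp4.1LG10g04400 was also lower in HL, from 1576, 1512, and 1573 FPKM to 814, 892, and 727 without overlap, but was not called there. For *TIP1-1* Cp4.1LG10g04400 the difference between the accessions in this change was 0.99 and did not reach the fold threshold (adjusted p = 0.0296).

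NIP genes went both ways. *NIP2-1* Cp4.1LG04g01550 had 28, 52, and 30 counts in the H libraries at 5 DAP and 0 in each at 20 DAP, at least 8.16-fold lower. In HL it had 13, 18, and 13 and 1, 3, and 1 counts, at least 3.59-fold lower. *NIP5-1* Cp4.1LG05g07410 had log2 fold changes of -2.57 in H and -2.89 in HL and passed in both. *NIP3-1* Cp4.1LG01g01000 rose, from 1.32, 0.984, and 3.33 FPKM to 25.1, 15.7, and 23.9 in H (log2 fold change 3.53, SE 0.44, adjusted p = 0.000273). In HL it rose from 0.495, 0.942, and 1.09 to 1.81, 3.21, and 5.10 FPKM (log2 fold change 2.01, SE 0.48, adjusted p = 0.0086). For *NIP1-1* Cp4.1LG19g06570 the log2 fold changes were 1.99 in H, which passed, and 1.33 in HL, which did not, and the difference between them had an adjusted p of 0.757. *NIP6-1* Cp4.1LG02g15170, whose *Arabidopsis* counterpart distributes boric acid in the shoot, fell in HL (log2 fold change -1.08, SE 0.25, adjusted p = 0.00743), and its log2 fold change in H was -0.94. The call in HL was lost without HL replicate 1 of 5 DAP. Of the SIPs, *SIP1-1* Cp4.1LG10g07020 rose in both accessions, by 2.45 in H and 1.56 in HL on the log2 scale. *TIP3-2* Cp4.1LG09g10890 went from 0.551, 0.596, and 0.578 FPKM to 23.4, 20, and 2.49 in H (log2 fold change 4.74, SE 0.82, adjusted p = 0.00151), in the libraries whose storage protein sums rose as given above, and the part of these in the change was not tested.

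**Figure D5:**
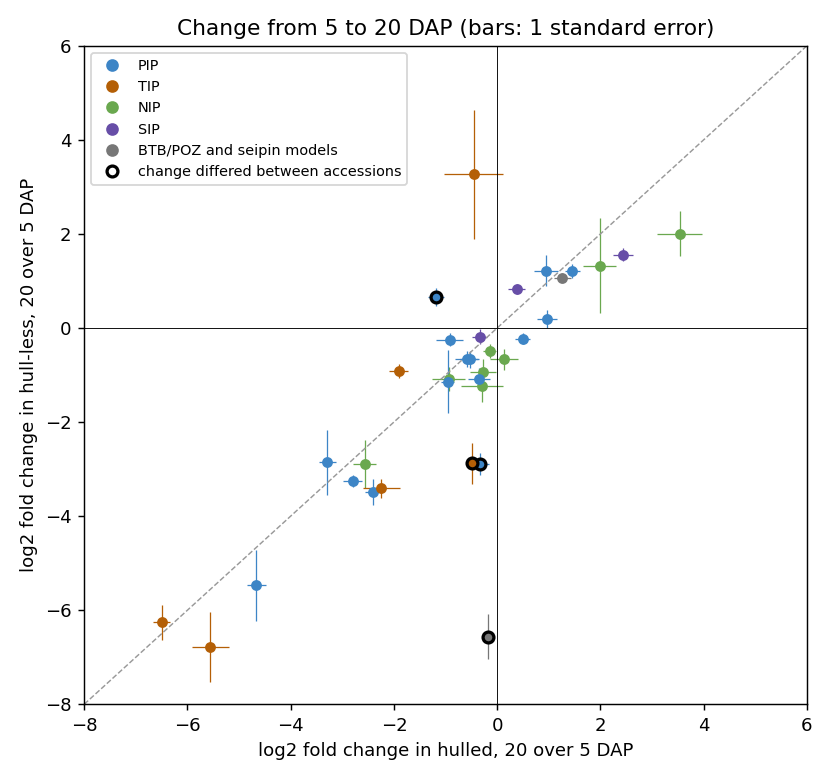
log2 fold change from 5 to 20 DAP in HL (y axis) against that in H (x axis) for 34 aquaporins, coloured by subfamily. Bars are 1 standard error, the dashed line marks equal change, and black rings mark genes whose change differed between accessions. The 3 genes at the floor in one of the stages are not drawn. The 4 ringed genes lie off the line, 3 below it and 1 above.

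Whether the change from 5 to 20 DAP differed between accessions was tested directly in one fit of all 18 libraries. Of 42 tested members, 3 had a lower and 1 a higher change in HL than in H, against 7.85% of all genes lower and 6.03% higher. Neither count of members exceeded the share over all genes. Of 31 chlorenchyma markers, 20 had a higher and 0 a lower change in HL by the same contrast, and their part in the members' values was not tested. The BTB/POZ model Cp4.1LG05g03360 had a log2 fold change of -6.38 ± 0.45 (SE) at adjusted p = 5.18e-07 for the difference between the accessions. *PIP2-7* Cp4.1LG05g08140 had a log2 fold change of -2.56 ± 0.31 (SE) at adjusted p = 6.15e-05, from log2 fold changes of -2.89 in HL and -0.32 in H. *TIP1-1* Cp4.1LG19g03840 had a log2 fold change of -2.39 ± 0.50 (SE) at adjusted p = 0.00386. *PIP2-7* Cp4.1LG04g04870 had a positive difference (log2 fold change 1.84, SE 0.32, adjusted p = 0.00109), as it fell in H (log2 fold change -1.18) and its log2 change in HL was 0.66, below the fold threshold. These 4 were called under all 25 alternative settings. Because 5 and 20 DAP enter both this test and the comparisons by stage, they share libraries.

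Other lists of genes that work beside aquaporins were set against them. Their counts stand beside the shares of all genes, of which 5.53% were higher and 6.43% lower at 5 DAP. The shares were 5.42% and 5.56% for 10 DAP, while those of 20 DAP reached 8.37% and 12.7%. The vacuolar proton pumps energize the membrane in which TIPs sit. Of these, 1 was higher and 1 lower in HL among 37 tested at 5 DAP, 0 and 1 among 36 at 10 DAP, and 1 and 5 among 36 at 20 DAP. The V-ATPase subunit a1 gene Cp4.1LG05g08670 was at 12.7, 9.53, and 8.90 CPM in H and 2.97, 5.02, and 2.83 CPM in HL at 20 DAP, lower in every HL library (log2 fold change -1.53). The summed level of the vacuolar pumps overlapped at 20 DAP, at 4846 to 5297 CPM in H and 4706 to 5233 CPM in HL. The plasma membrane proton pumps had 2 lower members of 6 tested at 5 DAP, 1 higher and 1 lower of 6 at 10 DAP, and 0 of 7 at 20 DAP. Of the genes matched to *ATPase 11*, Cp4.1LG01g23110 was lower in HL at 5 DAP (28.1, 29.4, and 31.3 CPM in H and 14.5, 13.9, and 14.8 CPM in HL). The more abundant match Cp4.1LG09g10650 was at 606, 505, and 603 CPM in H and 938, 941, and 958 CPM in HL, and was not called. The summed level of this list at 5 DAP was 761 to 888 CPM in H and 1290 to 1298 CPM in HL. Boron transporters export borate, the partner step to boric acid entry through NIPs. None of 5 tested was called at 5 DAP and none of 4 at 10 DAP, and 2 of 4 were lower at 20 DAP. The *BOR4* match Cp4.1LG03g13870 was at 66.3, 50.3, and 63.7 CPM in H and 0.476, 0.288, and 0.329 CPM in HL at 20 DAP, with a log2 fold change of -7.34 at adjusted p = 7.06e-06. The *BOR1* match Cp4.1LG02g16010 was at 2.11, 2.40, and 4.67 CPM in H and 0.595, 0.115, and 0.263 CPM in HL (log2 fold change -3.21). Another *BOR1* match, Cp4.1LG20g02500, was at 68.8, 68.4, and 49.7 CPM in H and 102, 112, and 139 CPM in HL at 20 DAP, and was not called. The summed level of the boron transporters overlapped at 20 DAP, at 128 to 141 CPM in H and 107 to 140 CPM in HL.

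*NIP2-2* Cp4.1LG03g08080 was the most abundant NIP, with a mean of 91.9 FPKM over all libraries, and *SIP1-1* Cp4.1LG19g01960 the most abundant SIP, with 80.0 FPKM. Neither was called between accessions at any stage. A tandem group of PIP2 genes on LG10 (Cp4.1LG10g04770, Cp4.1LG10g04850, Cp4.1LG10g04860, and Cp4.1LG10g04870) stayed at or below 1.91 FPKM in every library. Among the genes on LG19, *PIP2-1* Cp4.1LG19g04020, which overlaps *PIP2-2* Cp4.1LG19g04110 by 1496 bases, rose in HL from 5 to 20 DAP, by 1.22 on the log2 scale (adjusted p = 0.0127), and was at 114, 97.8, and 44.6 FPKM in the HL libraries of 20 DAP. The call was lost without HL replicate 1 of 20 DAP, when the log2 fold change was 0.93. Overlapping genes of this kind cannot be separated without knowing whether the counting used the strand.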

How the data were processed

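Seed coat RNA of hulled and hull-less *C. pepo* was sequenced on an Illumina HiSeq at 5, 10, and 20 DAP, with 18 libraries in 6 groups of 3. Per the paper's methods, the authors mapped clean reads to the zucchini genome. The counting tool, its use of strand, and the genome version are not given in the sources used here. The authors deposited raw counts per gene, which were not normalized, and FPKM values, which the methods credit to Cufflinks. The deposited FPKM scaled each library in proportion to a size factor of DESeq2's method. The deposited columns of the authors' own comparisons (fold changes and p-values) were not used.

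Genes were filtered with filterByExpr, scaled by TMM, and tested with edgeR 4.0.16 (glmQLFit and glmQLFTest) in R 4.3.3, using the 6 libraries of a comparison, or all 18 for the difference between accessions in the change from 5 to 20 DAP. P-values were adjusted over all genes tested by the Benjamini-Hochberg method. Members were called at an adjusted p up to 0.05 with a log2 change of 1 or more in either direction. Alternatives were DESeq2 1.42.0, limma 3.58.1 on log2(FPKM + 1) or log2(FPKM + 0.1), other scalings, no filter, all 18 libraries in one fit, a replicate block, and each replicate left out. Values per library are given for the 6 members with the highest mean FPKM, for up to 3 called members with the highest and 3 with the lowest log2 fold change at each stage, for up to 2 in each direction for 20 against 5 DAP in each accession, and for those called in the difference between accessions; a few others were named after their values were seen. The members and lists were chosen with earlier results of these data known. Lists of other pathways and cell types were matched by annotation text, except the 3 secondary wall *CesA* genes, which were taken by the paper's supplementary identifiers. Results are given in the report, apart from a list of 2 xylem vessel genes. Of these, 1 could be tested between accessions, at 20 DAP only. This gene, Cp4.1LG00g05400, was lower in HL, with means of 0.937 CPM in H and 0 CPM in HL.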

Additional observations from a re-analysis of the deposited data

Results flagged for a closer look

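In 4 members the change from 5 to 20 DAP differed between accessions, by a contrast in one edgeR fit of all 18 libraries. Of 42 tested members 3 were lower and 1 higher, against 7.85% and 6.03% of all genes. On the log2 scale, the change in HL minus that in H was -6.38 for the BTB/POZ model Cp4.1LG05g03360 (adjusted p = 5.18e-07), -2.56 for *PIP2-7* Cp4.1LG05g08140 (adjusted p = 6.15e-05), and -2.39 for *TIP1-1* Cp4.1LG19g03840 (adjusted p = 0.00386). It was 1.84 for *PIP2-7* Cp4.1LG04g04870 (adjusted p = 0.00109).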

How the results depend on the processing

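Over all comparisons, members, and settings, 3503 of 3618 single values kept their side of the thresholds, 68 newly passed, and 47 no longer passed. No value that was called in the main or the alternative fit turned its direction. Turns of direction among uncalled values were not counted. At 5 DAP, the fit of all 18 libraries gave 5 lower members in place of 10. At 10 DAP, DESeq2 gave 1 lower member and the fit of all 18 libraries 3, in place of 0. From 5 to 20 DAP in HL, limma on log2(FPKM + 1) gave 11 lower members in place of 17. For the difference between accessions in that change, DESeq2 and limma on log2(FPKM + 0.1) each gave 2 higher members in place of 1. The cause of these shifts was not tested.

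With a replicate block, 0 members were higher at 10 DAP in place of 3, 11 were lower at 20 DAP in place of 7, and 2 were higher in the difference between accessions in place of 1. The correlations of same-numbered deviations between accessions ran from -0.25 to 0.26. Replicate 1 matched its own number best at 5, 10, and 20 DAP (r = 0.26, 0.16, and 0.19). With deviations taken within groups of 3, these values cannot settle whether replicate numbers paired the samples.

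With each replicate left out in turn, the number higher ranged from 0 to 1 at 5 DAP, from 0 to 6 at 10 DAP, from 1 to 2 at 20 DAP, and from 1 to 3 in the difference between accessions. The number lower ranged from 0 to 1 at 10 DAP, from 6 to 12 at 20 DAP, and from 3 to 5 in the difference between accessions. The higher member at 5 DAP appeared without H replicate 1, and the 12 and the 5 lower members without HL replicate 1 of 20 DAP. Under upper-quartile scaling, the all-gene median shifted by -0.14 on the log2 scale from 5 to 20 DAP in HL, and by less in the other comparisons. The depth of 13827773 to 18443048 counts limits statements on the members at or under 3 counts.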
